A study of Mus musculus with 21 samples.

Results

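The 9 genes described here encode claudins and their partners at the tight junction, and they are 9 of the 32285 genes in the deposited count table. They were chosen by name: the claudins Cldn1, Cldn3, Cldn4, Cldn5, Cldn7 and Cldn18, the membrane protein occludin (Ocln), the scaffold ZO-1 (Tjp1) and the junctional adhesion molecule JAM-A (F11r). Their unique molecular identifiers (UMIs, each counting 1 captured transcript) were summed per library in epithelial, endothelial, mesothelial-like, fibroblast and melanoma cells. The series is a single-cell RNA sequencing study of a transplanted mouse melanoma and of the lung metastases that followed. Fragments of the MT-ret melanoma were placed under the skin of mT/mG mice of both sexes at 8 to 10 weeks of age. In these hosts every cell constitutively carries the red fluorophore tdTomato, so that tdTomato separates host cells from the unlabeled melanoma cells. Cells sorted for the host as living tdTomato+ or living tdTomato+ CD45- formed the tumor microenvironment (TME) groups, which were lung metastasis TME (4 libraries, 7648 cells) and primary tumor TME (4 libraries, 6477 cells). Melanoma cells sorted as tdTomato- formed lung metastasis MM (2 libraries, 11948 cells) and primary tumor MM (2 libraries, 36900 cells), and lungs of mice without a tumor gave unchallenged lung (4 libraries, 37386 cells).

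Tight junctions seal the space between neighboring cells of an epithelium or endothelium. Claudins are membrane proteins that form the strands of the seal and set which solutes can pass, occludin and JAM-A join the strands from the membrane, and ZO-1 ties them to the actin skeleton. Each barrier has its own claudins: Cldn5 is the main claudin of blood and lymphatic endothelium, Cldn18 of the lung alveolus, Cldn3, Cldn4 and Cldn7 of many lining epithelia, and Cldn1 of the epidermis.

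The 16 different libraries held 100359 cells and 1777036 to 60339415 UMIs each. The file named 24 libraries, of which 5 repeated the cells of another and were counted once, and any pair of the 16 shared at most 1.198% of the barcodes of the smaller library. Replicates 5 and 6 of the TME groups were deposited under a second replicate number as well, and which mouse each came from could not be told. The file named the mice of replicates 1-3 separately, but the labels list these replicates as 1 sample in each TME group. Their cells were therefore joined here into 1 library per group. Replicate 1-3 thus held 2 mice in lung metastasis TME (196 and 589 cells) and 3 mice in primary tumor TME (272, 235 and 161 cells). Every other library came from 1 mouse. Metastasis samples held some adjacent lung, depletion of CD45+ cells differed between libraries, and unchallenged lung replicate 6, primary tumor MM replicate 4 and primary tumor TME replicate 6 were shallow, with medians of 1605, 1654 and 1203 UMIs per cell. By their markers, 2163 of the lung metastasis TME cells were melanoma cells, 2127 of them in replicate 5, as were 42 of the primary tumor TME cells, and these entered no host class. In primary tumor TME replicate 6, 1670 unnamed cells had a median of 1074 UMIs, while its endothelial cells and fibroblasts had medians of 6993 and 5570. The labels call the primary tumors lung, whereas the deposited cell annotation calls them skin. Skin without a tumor was not analysed here, so that tumor and site cannot be told apart in any comparison of primary tumor with lung.

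Cells were clustered without the tight junction genes and named from fixed markers of each type. Classes held 6183 endothelial cells, 4588 ciliated cells, 2104 alveolar type II (AT-2) cells, 1285 club cells, 1865 fibroblasts, 306 mesothelial-like cells and 50290 melanoma cells. The summed counts per 1000000 UMIs (CPM) of each class's own markers were high in its own cells, at 9277 to 18970 CPM in endothelial cells, 14718 to 50154 CPM in fibroblasts, 39915 to 203294 CPM in AT-2 cells and 18614 to 28626 CPM in melanoma cells. Mesothelial-like cells had the lowest sum of own markers, from 1235 to 5357 CPM. A cluster of 268 cells led by Aqp3, Krt5 and Trp63 had 3 of 8 club and 3 of 10 alveolar type I markers raised. It is called Krt5 cells after its leading genes, by an exception made after those genes had been seen. Only libraries with at least 20 cells of a class entered its values. Doublets were not called, and a cluster was named from the list with the largest share of raised markers unless another type had more markers among its 10 leading genes, and a subcluster kept the name of its cluster unless markers of a foreign type led in this way or were mostly raised in it. A B cell cluster of 31 cells (median 9158 UMIs) had 8 of 8 B cell and 11 of 12 endothelial markers raised. Subclusters of 2483 and 229 cells kept the name ciliated with 0 markers of any type raised against the other epithelial cells of their libraries. Cell cycle genes such as Top2a and Mki67 led the smaller of them. An endothelial subcluster of 358 cells, with the leukocyte genes Tyrobp, Fcer1g and Ccl6 among its leading genes, stayed with the endothelial cells. Fits without it, added after the values had been seen, kept the direction and call of every member tested in the 3 endothelial tissue comparisons and in those with fibroblasts and AT-2 cells.

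The members lie on 7 chromosomes in the GRCm38 annotation, and Cldn3 (chromosome 5, 134986214 to 134987472, plus strand) and Cldn4 (134945119 to 134946934, minus strand) are neighbors separated by 39.3 kb. Cldn5 covers chromosome 16 from 18776847 to 18778262 on the plus strand, and Cldn18 covers chromosome 9 from 99689461 to 99717267 on the minus strand. Cldn1 lies on the minus strand of chromosome 16 from 26356642 to 26371841, and Cldn7 on the plus strand of chromosome 11 from 69964779 to 69967885. Ocln (chromosome 13, 100496507 to 100552718) and Tjp1 (chromosome 7, 65296165 to 65527781) are on the minus strand, and F11r (chromosome 1, 171437535 to 171464603) is on the plus strand. All 9 are protein coding.

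The 250 bases before the start of the endothelial claudin, the AT-2 claudin and the neighboring pair Cldn3 and Cldn4 are printed because these genes separate the cell classes below. They come from RefSeq on GRCm38.p6, in which all 9 members had a promoter (12 starts), and each reads 5′ to 3′ along its gene. Capitals mark letters found by a search of both strands for GGGCGG (a GC box), CAGGTG (an E-box), CAAGTG (an NKX2-type box) and AACNNGTT (a grainyhead-type box).
Cldn5, chr16:18776597-18776846, plus strand: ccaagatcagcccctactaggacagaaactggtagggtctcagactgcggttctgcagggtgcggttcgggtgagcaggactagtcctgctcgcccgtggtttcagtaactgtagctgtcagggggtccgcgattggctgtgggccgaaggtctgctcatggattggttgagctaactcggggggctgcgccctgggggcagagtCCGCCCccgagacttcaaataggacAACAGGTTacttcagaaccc
Cldn18 start 1, chr9:99717268-99717517, minus strand: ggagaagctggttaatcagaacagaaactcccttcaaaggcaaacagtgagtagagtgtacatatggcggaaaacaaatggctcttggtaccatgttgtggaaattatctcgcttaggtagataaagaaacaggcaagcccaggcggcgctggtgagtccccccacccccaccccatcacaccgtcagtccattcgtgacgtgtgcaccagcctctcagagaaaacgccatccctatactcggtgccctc
Cldn18 start 2, chr9:99710064-99710313, minus strand: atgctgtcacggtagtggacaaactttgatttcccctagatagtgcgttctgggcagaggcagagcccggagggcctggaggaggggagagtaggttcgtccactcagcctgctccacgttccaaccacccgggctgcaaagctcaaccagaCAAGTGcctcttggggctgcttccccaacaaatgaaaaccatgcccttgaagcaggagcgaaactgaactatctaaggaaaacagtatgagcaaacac
Cldn3, chr5:134985964-134986213, plus strand: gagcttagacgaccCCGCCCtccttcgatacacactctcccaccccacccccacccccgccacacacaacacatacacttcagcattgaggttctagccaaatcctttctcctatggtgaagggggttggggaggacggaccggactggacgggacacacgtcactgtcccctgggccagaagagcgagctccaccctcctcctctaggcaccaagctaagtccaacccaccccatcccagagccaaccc
Cldn4, chr5:134946935-134947184, minus strand: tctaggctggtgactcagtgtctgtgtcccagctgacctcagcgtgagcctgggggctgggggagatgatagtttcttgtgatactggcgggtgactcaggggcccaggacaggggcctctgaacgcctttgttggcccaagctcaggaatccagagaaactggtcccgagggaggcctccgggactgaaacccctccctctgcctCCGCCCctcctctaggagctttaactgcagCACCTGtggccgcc

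The GC box stood in 9 of the 12 member windows and in 32.7% of all 32851 promoters of the same length, the E-box in 4 of 12 and in 17.2%, the NKX2-type box in 3 of 12 and in 11.6%, and the grainyhead-type box in 1 of 12 and in 3.64%. Cldn5 held a GC box and the grainyhead-type box, Cldn3 a GC box, Cldn4 a GC box and an E-box, and Cldn18 start 2 an NKX2-type box, while none of the 4 was in the window of Cldn18 start 1. These are matches of letters, and the motifs were picked after the members' values had been seen. The reads came from 3′ ends, so that the 2 starts of Cldn18 could not be told apart.

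The members were highest in different cell classes. Over all libraries Cldn5, Tjp1 and F11r had their highest mean level in endothelial cells, Cldn3, Cldn7 and Ocln in ciliated cells, Cldn18 in AT-2 cells, Cldn4 in Krt5 cells and Cldn1 in fibroblasts. For all 9 the class with the highest share of cells with a UMI was the same as that with the highest CPM, both with every cell thinned to 1000 UMIs and without thinning. Over all cells Cldn5 had 70044 UMIs, Tjp1 21499, F11r 16121, Cldn3 9446 and Cldn18 6429. Cldn7 had 6395, Ocln 2430, Cldn1 1167 and Cldn4 234, the fewest of the members.

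**Figure D1:**
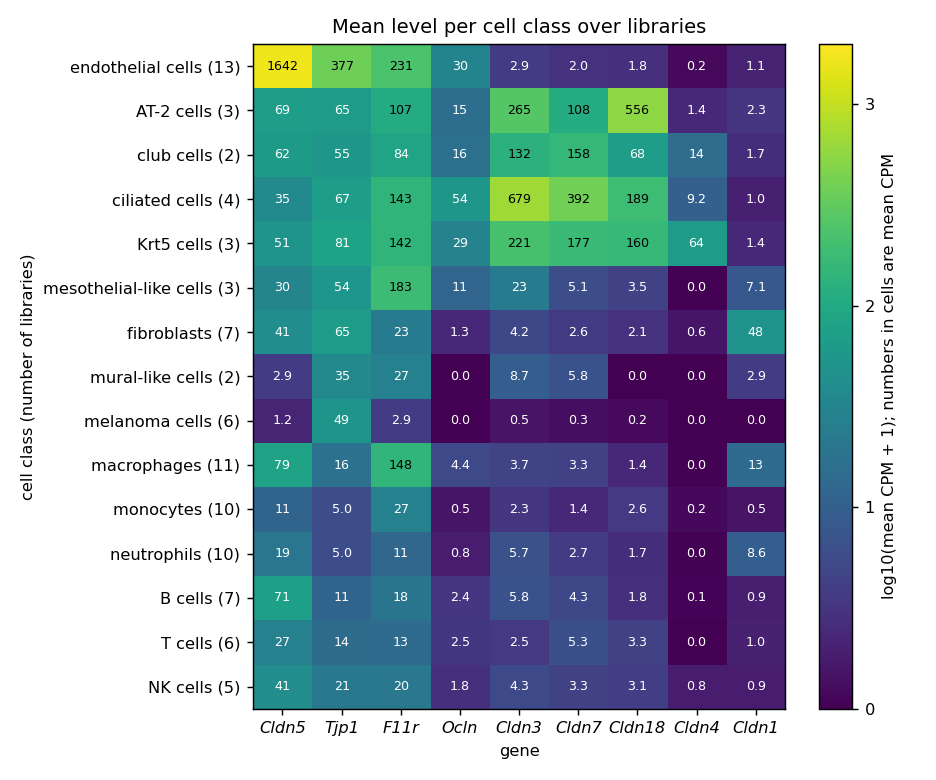
Mean CPM of the 9 members (columns) in 15 cell classes (rows, number of libraries in brackets) on a log color scale, to be read within a column. Cldn5 peaked in endothelial cells at 1642.5 CPM and Cldn18 in AT-2 cells at 555.5 CPM, and Cldn3 and Cldn7 were highest in ciliated cells.

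Cldn5 reached 1642.5 ± 1142.1 CPM in endothelial cells (SD, n = 13 libraries), with a range of 262 to 4368.5 CPM. Macrophages (79.16 ± 103 CPM, n = 11), B cells (70.88 ± 103.3 CPM, n = 7) and AT-2 cells (69.36 ± 72.75 CPM, n = 3) followed, and their levels overlapped with each other. The highest macrophage library (257 CPM) lay below every endothelial library. The highest B cell library (284.9 CPM, lung replicate 4) lay above the lowest endothelial library, but 588 of its 626 Cldn5 UMIs came from 30 cells of the B cell cluster with raised endothelial markers. Without that cluster, left out after the values had been seen, B cells averaged 28.65 ± 38.5 CPM with a highest library of 108.5 CPM, below every endothelial library. Tjp1 stood apart in endothelial cells, at 376.8 ± 147.8 CPM (n = 13), with no overlap with Krt5 cells at 80.97 ± 37.29 CPM (n = 3). Below that, Krt5, ciliated (66.99 ± 10.58 CPM), AT-2 (64.97 ± 6.84 CPM) and fibroblast (64.85 ± 12.22 CPM) levels of the scaffold did not differ beyond their spread. F11r was broad, at 231 ± 40.55 CPM in endothelial cells, 182.6 ± 162.8 CPM in mesothelial-like cells, 147.9 ± 48.27 CPM in macrophages and 142.6 ± 27.68 CPM in ciliated cells, and neighbors in this order overlapped. Ocln ran from 54.01 ± 15.47 CPM in ciliated cells through 30.06 ± 22.02 CPM in endothelial cells and 29.18 ± 4.49 CPM in Krt5 cells to 15.67 CPM in club cells and 14.59 CPM in AT-2 cells. The endothelial mean includes primary tumor libraries, at most 8.425 CPM, a tissue that the ciliated mean lacks. In lung replicates 5 and 6 Ocln was 53.96 and 56.36 CPM in endothelial cells and 74.52 and 54.45 CPM in ciliated cells.

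Cldn18 had 555.5 ± 202.9 CPM in AT-2 cells (n = 3), with no overlap with ciliated cells at 188.9 ± 55.77 CPM (n = 4) or Krt5 cells at 159.9 ± 38.86 CPM (n = 3). In Krt5 cells few cells carried it, namely 9 of 120, 7 of 84 and 2 of 38 cells with 48, 62 and 23 UMIs in lung replicate 6 and metastasis replicates 5 and 6, so that the mean is not the level of most of them. Cldn3 had 678.8 ± 334.4 CPM in ciliated cells, 264.6 ± 162 CPM in AT-2 cells and 220.6 ± 174.4 CPM in Krt5 cells, all overlapping. Cldn7 had the same leading class, with 392 ± 177.2 CPM in ciliated cells. Below it the order differed, with 177.2 ± 74.28 CPM in Krt5 cells, 158.2 ± 73.28 CPM in club cells and 107.9 ± 24.65 CPM in AT-2 cells. Cldn4 had 63.78 ± 47.22 CPM in Krt5 cells, from 49 UMIs in all, against 14.24 ± 6.26 CPM in club cells and 9.176 ± 8.396 CPM in ciliated cells. Cldn1 had 47.73 ± 42.19 CPM in fibroblasts (n = 7) and 13.27 ± 7.001 CPM in macrophages (n = 11), which overlapped.

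Leukocytes, which should lack epithelial claudins, give a background for these values, in which free RNA and doublets cannot be told apart. In the leukocytes of unchallenged lung Cldn18 ranged over the 4 libraries from 0.079 to 8.825 CPM, Cldn3 from 0.079 to 10.09 CPM, Cldn7 from 0.237 to 12.76 CPM and Cldn4 from 0 to 0.4966 CPM. Leukocyte Cldn5 ranged from 16.53 to 167.1 CPM in unchallenged lung, with or without the B cell cluster with raised endothelial markers, and from 0.5907 to 0.9668 CPM in primary tumor TME. The epithelial and endothelial peaks were above these levels in every library. F11r in lung leukocytes, at 14.38 to 111.8 CPM, was not at such a floor, and JAM-A is known on leukocytes and platelets.

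The lining cells of the lung differed in their claudins. AT-2 cells, which make surfactant, carried Cldn18 at 704.4 and 324.3 CPM in unchallenged lung replicates 5 and 6 and at 637.7 CPM in lung metastasis TME replicate 5. Ciliated cells, which move mucus, had Cldn18 at 205.8 and 143.5 CPM in the same lung replicates and at 260.5 and 145.7 CPM in lung metastasis TME replicates 5 and 6. Every AT-2 library lay above every ciliated library. Endothelial cells of the 3 libraries with AT-2 cells averaged 6.826 CPM, which is within the range of leukocytes. After thinning, 44.9% and 22.3% of AT-2 cells of the 2 lung libraries and 34.1% of those of the metastasis library had a Cldn18 UMI.

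Cldn3 showed the opposite order of these epithelia. Ciliated cells had 640.8 and 293.4 CPM in unchallenged lung replicates 5 and 6 and 1109.4 and 671.6 CPM in lung metastasis TME replicates 5 and 6. AT-2 cells had 258.3, 105.8 and 429.6 CPM (lung 5, lung 6, metastasis 5), lower than the ciliated cells of the same library in all 3. Club cells, the secretory cells of the airway, had 140 and 123.8 CPM in lung replicates 5 and 6. Cldn7 ran in parallel, with 386.3, 205.9, 631.3 and 344.7 CPM in ciliated cells (lung 5, lung 6, metastasis 5, metastasis 6) and 115.1, 80.5 and 128.2 CPM in AT-2 cells. In Krt5 cells Cldn3 was 77.34 CPM in lung replicate 6 and 414.8 and 169.8 CPM in metastasis replicates 5 and 6, and Cldn7 was 109.9, 256.9 and 164.7 CPM in the same order. Replicate 5 was thus the higher metastasis library for both genes in both classes.

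Cldn4 had few UMIs in every epithelial class. It had 29, 12 and 8 UMIs in the Krt5 cells of lung replicate 6 and metastasis replicates 5 and 6, which came to 118, 32.11 and 41.17 CPM. These UMIs lay in 16 of 120, 7 of 84 and 4 of 38 cells, so that the mean is not the level of most Krt5 cells. Krt5 cells were not tested against other classes. Club cells of lung replicates 5 and 6 had 4 and 31 UMIs (18.67 and 9.817 CPM), and the 3 AT-2 libraries had 5 UMIs together. The neighbors Cldn3 and Cldn4 thus had different leading classes, ciliated and Krt5 cells.

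**Figure D2:**
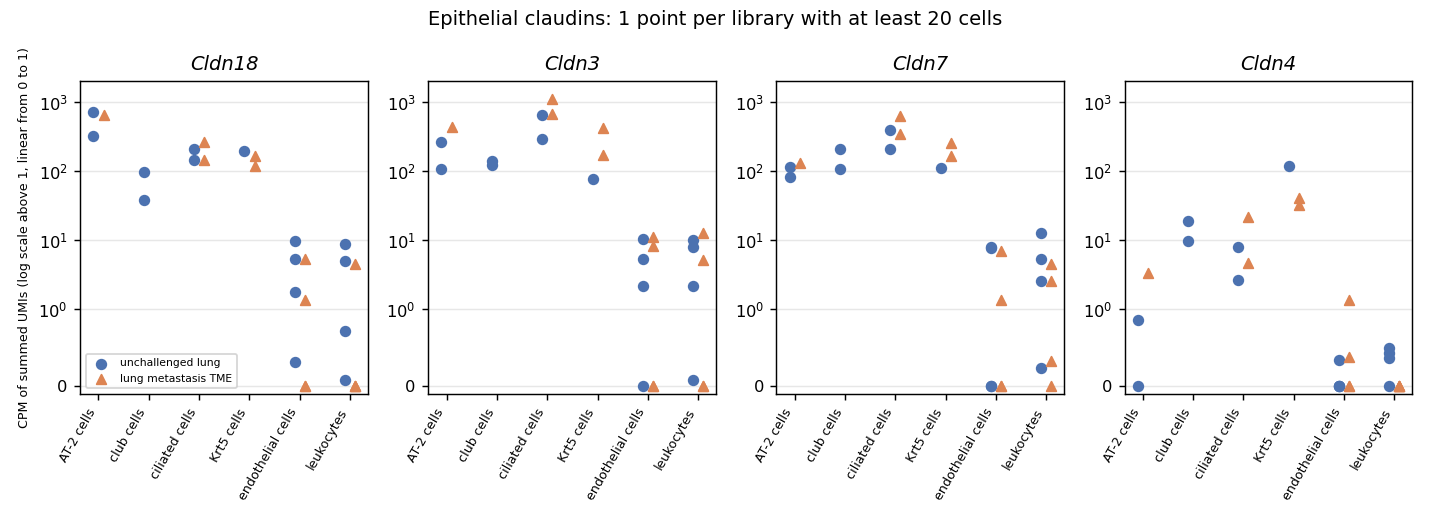
CPM of Cldn18, Cldn3, Cldn7 and Cldn4 per library in 4 epithelial classes, endothelial cells and leukocytes, with circles for unchallenged lung and triangles for lung metastasis TME, on an axis that is linear from 0 to 1 and logarithmic above. Cldn18 was highest in AT-2 cells, from 324.3 to 704.4 CPM, and Cldn4 in Krt5 cells, from 32.11 to 118 CPM.

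Within libraries, AT-2 cells were compared with endothelial cells by edgeR's quasi-likelihood test on the summed UMIs, with the library as a block. Of the libraries, 3 held at least 20 cells of both classes. The test came from a joint fit of 13 sums with 6 residual degrees of freedom, which also gave the comparisons with ciliated cells below. Its dispersion thus also rests on sums outside each comparison. Of the members, 7 passed an adjusted p of 0.05, and 30.0% of all genes tested did. Cldn18 was higher in AT-2 cells by 6.84 ± 0.36 on the log2 scale (SE, edgeR adjusted p = 3.41e-06), Cldn3 by 5.19 ± 0.30 (edgeR adjusted p = 3.41e-06) and Cldn7 by 4.44 ± 0.35 (edgeR adjusted p = 5.69e-06). Cldn5 had a log2 difference of -4.93 ± 0.42 (edgeR adjusted p = 8.43e-06) and Tjp1 of -2.14 ± 0.26 (edgeR adjusted p = 7.64e-05), lower in AT-2 cells. Ocln (-1.05 ± 0.31, edgeR adjusted p = 0.0235) and F11r (-0.75 ± 0.19, edgeR adjusted p = 0.00975) were lower in AT-2 cells as well, and Cldn4, with 5 UMIs in AT-2 cells, did not pass (2.29 ± 1.04, edgeR adjusted p = 0.118) and Cldn1 was too low to be tested. The Ocln and F11r calls were lost without single libraries, at adjusted p = 0.197 for Ocln without lung replicate 5 and 0.16 without lung replicate 6, and at 0.0762, 0.13 and 0.0998 for F11r without metastasis replicate 5, lung replicate 5 and lung replicate 6.

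Between AT-2 and ciliated cells 4 members passed, beside 26.8% of all genes. Cldn18 was higher in AT-2 cells by 1.76 ± 0.29 on the log2 scale (edgeR adjusted p = 0.00101), whereas Cldn3 (-0.95 ± 0.26, edgeR adjusted p = 0.0166), Cldn7 (-1.46 ± 0.31, edgeR adjusted p = 0.00398) and Ocln (-1.59 ± 0.31, edgeR adjusted p = 0.00272) were lower. Cldn4 (-1.70, adjusted p = 0.114), Cldn5 (0.86, adjusted p = 0.11), Tjp1 (0.40, adjusted p = 0.282) and F11r (-0.10, adjusted p = 0.742) did not pass, and Cldn1 was too low to be tested. The Cldn3 call was lost without metastasis replicate 5 (adjusted p = 0.0549), without lung replicate 5 (adjusted p = 0.0833) and with classes of at least 10 cells (adjusted p = 0.0863), and the Cldn7 call with at least 10 cells (adjusted p = 0.0748). Between club and ciliated cells, with 2 libraries holding both, 3 members passed beside 12.5% of all genes. Cldn4 was higher in club cells (2.26 ± 0.66, edgeR adjusted p = 0.0448), and Cldn3 (-1.10 ± 0.32, edgeR adjusted p = 0.0405) and Ocln (-1.81 ± 0.40, edgeR adjusted p = 0.0126) were lower. Cldn18 (-1.09, adjusted p = 0.0762), Cldn5 (0.77, adjusted p = 0.318), Cldn7 (-0.58, adjusted p = 0.349), Tjp1 (0.18, adjusted p = 0.772) and F11r (-0.37, adjusted p = 0.34) did not pass, and Cldn1 was too low to be tested. No more than 1 of the 3 calls held when any of the 4 libraries of the fit was left out. Without lung replicate 5 all 3 were lost, at adjusted p = 0.126, 0.46 and 0.0925. Cldn4 and Cldn3 were lost without metastasis replicate 5 (0.0834 and 0.0711) and without metastasis replicate 6 (0.071 and 0.0626), and Cldn4 and Ocln without lung replicate 6 (0.375 and 0.186). The 3 comparisons share libraries and, in the last 2, the ciliated cells.

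Only 1 metastasis library held at least 20 AT-2 cells, so metastasis was not tested against lung there. Its 162 AT-2 cells had Cldn18 at 637.7 CPM (exact 95% Poisson interval 575.5 to 704.9, which covers counting error only), Cldn3 at 429.6 CPM (378.8 to 485.3) and Cldn7 at 128.2 CPM (101.2 to 160.2). The values of the 2 lung libraries lay on both sides of the first, and below the other two.

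Of 63 other tight junction genes, grouped as other claudins, junctional adhesion molecules, tricellular and marvel proteins, scaffolds and polarity complexes, 60 were in the table. Between AT-2 and endothelial cells, 15 were higher and 11 lower of 40 tested, with a list median of 0.685 beside -0.046 over all genes on the log2 scale. Crb3, a polarity protein of the apical membrane, was higher in AT-2 cells by 5.41 (edgeR adjusted p = 5.11e-06) and cingulin (Cgn), a cytoplasmic plaque protein, by 5.32 (edgeR adjusted p = 1.33e-05). Between AT-2 and ciliated cells 5 were higher and 7 lower of 40 tested (median -0.139, all genes 0.081), and Cgnl1, a cingulin-like plaque protein, was higher by 2.63. Between club and ciliated cells 2 were higher and 2 lower of 40 tested. Cldn10, a claudin of secretory cells, stood at 114.5 CPM in club and 2.168 CPM in ciliated cells, a log2 difference of 5.64 (edgeR adjusted p = 0.000234).

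In endothelium, Cldn5, Ocln and Tjp1 were lower in primary tumor than in lung, and F11r did not pass the test. Cldn5 measured 2418, 4368.5, 2218.3 and 2120.4 CPM in unchallenged lung replicates 1, 4, 5 and 6. It measured 1304.6, 2616.5, 1300.4 and 1072.4 CPM in lung metastasis TME replicates 1-3, 4, 5 and 6, and 657.1, 297.6, 762.6 and 262 CPM in primary tumor TME replicates 1-3, 4, 5 and 6. Every primary tumor library lay below every lung and metastasis library, and metastasis replicate 4 lay within the range of lung. The library names carry a run number, and what kind of run it stands for is not stated. Runs followed the replicate numbers (replicate 1 of lung shared a run with replicates 1-3, and replicates 5 and 6 shared one). Replicate 4 was the highest library of both lung and metastasis. Within each of the 3 runs every metastasis library lay below every lung library. After thinning to 1000 UMIs, which left out 160 of 4232 lung, 118 of 1520 metastasis and 3 of 408 primary tumor cells, 75.2% to 95.3% of lung, 47.9% to 83.1% of metastasis and 14.2% to 36.0% of primary tumor endothelial cells had a Cldn5 UMI. Without thinning the shares were 86.2% to 98.9% in lung and 29.1% to 52.2% in primary tumor.

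Occludin was nearly undetected in primary tumor endothelium. It measured 48.07, 44.31, 53.96 and 56.36 CPM in the lung libraries and 33.03, 46.51, 11.85 and 37.91 CPM in the metastasis libraries, in the order of replicates above. The 4 primary tumor libraries held 2, 0, 1 and 1 UMIs, or 8.425, 0, 1.513 and 0.9259 CPM, and the floor of 3 counts stood at 3.968 CPM in the library with none. Pooled, these 4 UMIs made 1.463 CPM (exact Poisson interval 0.3986 to 3.746). The lowest metastasis library, replicate 5, was above 3 of the primary tumor libraries and their floors, whereas replicate 1-3, with a floor of 12.64 CPM, was not deep enough to be ranked against it.

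The scaffold Tjp1 measured 439.4, 477.7, 445.7 and 424.4 CPM in lung, 478.9, 547.8, 270.7 and 361.5 CPM in metastasis and 181.1, 165.4, 231.5 and 238.9 CPM in primary tumor. Lung and metastasis overlapped, and all primary tumor libraries lay below both. F11r measured 266, 257.1, 238.4 and 255.4 CPM in lung, 297.3, 172.2, 188.9 and 181.4 CPM in metastasis and 198, 228.8, 252.7 and 191.7 CPM in primary tumor, and all 3 tissues overlapped. Cldn1, Cldn3, Cldn4, Cldn7 and Cldn18 were too low in endothelium to be tested.

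**Figure D3:**
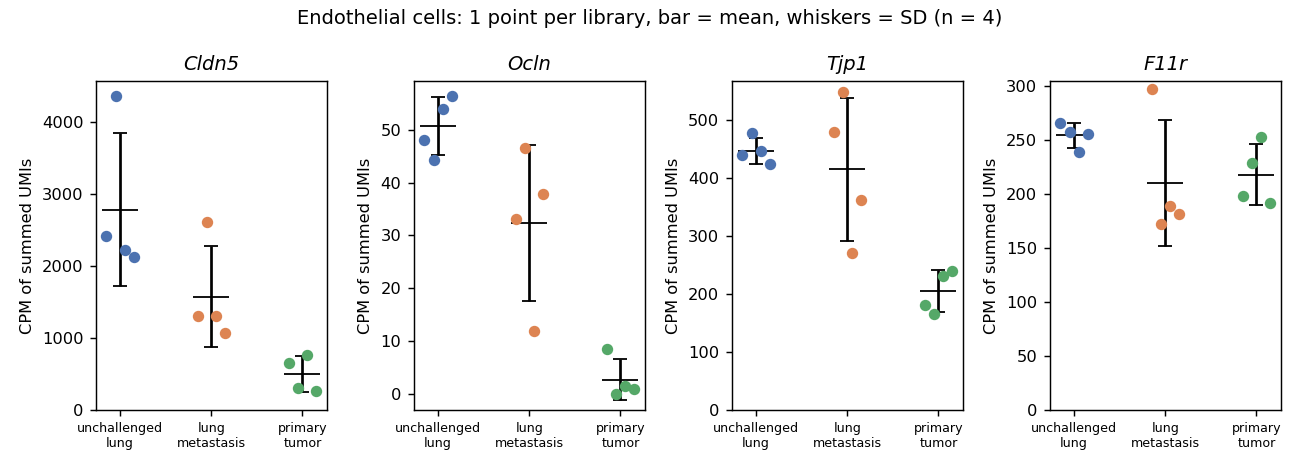
CPM of Cldn5, Ocln, Tjp1 and F11r in endothelial cells, with 1 point per library and bars for the mean and SD of 4 libraries in each tissue. Primary tumor libraries lay below all lung libraries for Cldn5, Ocln and Tjp1, and overlapped with them for F11r.

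One edgeR fit over these 12 sums gave the tests. Between primary tumor and lung endothelium 3 of the 4 members tested were lower and none was higher, beside 26.4% of all genes called. Cldn5 averaged 494.8 ± 252.4 against 2781 ± 1065 CPM, a fitted 5.30-fold lower level, with a log2 difference of -2.41 ± 0.42 (edgeR adjusted p = 0.000509). Ocln averaged 2.716 ± 3.856 against 50.67 ± 5.486 CPM (-4.90 ± 0.61, edgeR adjusted p = 3.05e-05, a fitted value that rests on 4 UMIs in tumor), and Tjp1 averaged 204.2 ± 36.47 against 446.8 ± 22.44 CPM (-1.02 ± 0.23, edgeR adjusted p = 0.00375). F11r averaged 217.8 ± 28.37 against 254.2 ± 11.52 CPM (-0.12 ± 0.20, edgeR adjusted p = 0.726).

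Between metastasis and lung endothelium 0 of 4 members tested passed in edgeR or in DESeq2, and 0 had an unadjusted p under 0.05, beside 3.64% of all genes called. The log2 differences were -0.78 ± 0.40 for Cldn5 (1573 ± 703.7 against 2781 ± 1065 CPM, edgeR adjusted p = 0.331), -0.71 ± 0.38 for Ocln (edgeR adjusted p = 0.353), -0.08 ± 0.23 for Tjp1 (edgeR adjusted p = 0.914) and -0.27 ± 0.20 for F11r (edgeR adjusted p = 0.536). With the run named in the libraries as a block, added after the values had been seen, Cldn5 gave -0.78 ± 0.38 (edgeR adjusted p = 0.322). No call of a member changed in the 3 endothelial comparisons.

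Between metastasis and primary tumor endothelium 3 members were higher in metastasis, beside 11.2% of all genes called. They were Cldn5 (1.63 ± 0.41 on the log2 scale, edgeR adjusted p = 0.017), Ocln (4.20 ± 0.67, edgeR adjusted p = 0.000929) and Tjp1 (0.94 ± 0.24, edgeR adjusted p = 0.0161), whereas F11r gave -0.16 ± 0.21 (edgeR adjusted p = 0.763). The Cldn5 call was lost without metastasis replicate 4 (1.25, adjusted p = 0.0627), primary tumor replicate 4 (1.46, adjusted p = 0.0655) or primary tumor replicate 6 (1.41, adjusted p = 0.0609). The Tjp1 call was lost without metastasis replicate 4 (0.73, adjusted p = 0.0622) or primary tumor replicate 4 (0.86, adjusted p = 0.0638). Within the run of replicates 5 and 6 the differences were 1.21 for Cldn5 (adjusted p = 0.136) and 0.40 for Tjp1 (adjusted p = 0.432). The 3 comparisons share libraries pairwise.

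Markers of other cells differed between these libraries. In endothelial cells, summed club markers reached 5903 CPM in metastasis replicate 5 and 5051 CPM in lung replicate 5, and were at most 8.4 CPM in primary tumor. Melanoma markers summed to 6588 CPM in metastasis replicate 5, 1724 CPM in metastasis replicate 6 and 1298 CPM in primary tumor replicate 6, and to at most 7.04 CPM in lung. Fibroblast markers summed to 767 to 1984 CPM in primary tumor and 58.7 to 557 CPM in lung endothelium. Own endothelial markers stayed at or above 9277 CPM in all libraries, and the part of these other markers in the differences was not tested.

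The vessel types behind these sums were counted in each library. Over the 4 lung libraries, 20.7% to 76.7% of endothelial cells were general capillary-like, 12.8% to 35.7% aerocyte-like (the thin capillary cells of gas exchange) and 8.22% to 20.7% venous-like. Over the 4 metastasis libraries, 54.8% to 69.2% were general capillary-like, 9.09% to 17.3% aerocyte-like and 3.64% to 24% tip-like. Replicate 5 held 1148 of the 1520 metastasis endothelial cells and 276 of the 312 tip-like cells, so that the pooled tip-like share of 20.5% was 9.68% without it. Over the 4 primary tumor libraries, 37% to 76.5% were venous-like and 8.18% to 21.2% lymphatic-like. The shares were not tested, and levels within a type were set beside the whole.

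Within lung, Cldn5 was 3416.5, 4817.5, 3381.3 and 2989.3 CPM in aerocyte-like cells, 2250.2, 4503.8, 2196.8 and 2114.2 CPM in general capillary-like cells and 957.9, 2544.9, 958.3 and 1215.6 CPM in venous-like cells of replicates 1, 4, 5 and 6. The order aerocyte-like, general capillary-like, venous-like held in all 4 libraries. Arterial-like cells had 3569.3, 1779.2 and 1900 CPM in replicates 4, 5 and 6. In metastasis, aerocyte-like cells had 2868 and 2777.5 CPM and tip-like cells 807.1 and 778.7 CPM in replicates 5 and 6. General capillary-like cells of metastasis had 889.4, 2753.5, 1312.1 and 1031.7 CPM in replicates 1-3, 4, 5 and 6, of which only replicate 4 reached the range of lung, and all lay below the lung libraries of their own run. Here too different subclusters held the type, with 87.3% of the metastasis cells in one that held 1 lung cell.

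Venous-like cells of lung and primary tumor carried the same name but fell into different subclusters. Of 281 in primary tumor, 280 lay in a subcluster led by A730049H05Rik and Tmem108 that held no lung cell, and of 635 in lung, 487 lay in a subcluster led by Slc6a2 and Gria3 and 148 in one led by Slc6a2 and Igfbp5. Type and tissue therefore cannot be told apart in their comparison. In primary tumor replicates 4, 5 and 6 their Cldn5 was 137.6, 153.4 and 147.7 CPM, a mean of 146.2 ± 8.025 against 1419.2 ± 760.2 CPM in lung, with no overlap. The share of venous-like cells with a Cldn5 UMI was 7.56% to 10.5% in tumor and 54.2% to 80.4% in lung after thinning, and 21.95% to 33.33% and 73.87% to 91.59% without it. The lymphatic-like cells of primary tumor replicate 5 had 2081.1 CPM (21 cells, exact Poisson interval 1850 to 2333), so that low Cldn5 was not shared by all endothelium of that library. Arterial-like cells were a single subcluster in every tissue, and their pooled Cldn5 was 1905 CPM in primary tumor (275 UMIs in 21 cells of 4 libraries) and 2062 CPM in lung (1237 UMIs in 144 cells), with no test. Venous-like Ocln was 34.01, 23.08, 38.88 and 48.46 CPM in lung and 0, 0 and 1.145 CPM (1 UMI) in tumor. Venous-like Tjp1 was 300.4, 313.5, 305 and 331.2 CPM in lung and 161.8, 247.3 and 232.4 CPM in tumor.

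**Figure D4:**
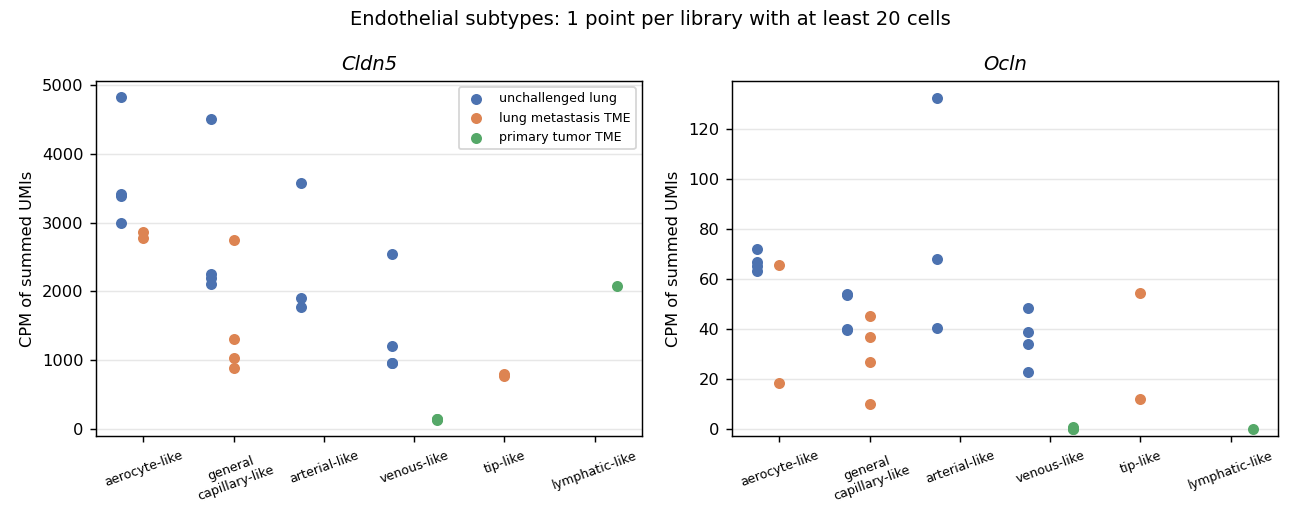
CPM of Cldn5 and Ocln per library in 6 endothelial types, colored by tissue. Venous-like cells of primary tumor had 137.6 to 153.4 CPM of Cldn5, below the 957.9 to 2544.9 CPM of venous-like cells of lung.

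A fit to venous-like cells alone, added after the values had been seen, called 23.7% of all genes. Cldn5 was a fitted 9.083-fold lower in tumor (log2 difference -3.18 ± 0.38, edgeR adjusted p = 8.91e-06), and Ocln was called as well (edgeR adjusted p = 1.35e-05, resting on 1 UMI in tumor). Tjp1 no longer passed (-0.46 ± 0.23, edgeR adjusted p = 0.174), and F11r turned to 0.23 ± 0.22 (edgeR adjusted p = 0.501). A fit to general capillary-like cells alone, also added afterwards, compared metastasis with lung and called 0.552% of all genes. Cldn5 gave -0.80 ± 0.41 there (edgeR adjusted p = 0.461), Ocln -0.66 ± 0.38 (edgeR adjusted p = 0.512), F11r -0.34 ± 0.25 (edgeR adjusted p = 0.625) and Tjp1 0.07 (edgeR adjusted p = 0.963).

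Of the other tight junction genes, 6 were higher and 5 lower in primary tumor than in lung endothelium among 23 tested (median -0.115, all genes -0.018). Ildr2, a relative of the tricellular junction proteins, was at 30.6 ± 1.756 CPM in tumor and 0.4289 ± 0.4144 CPM in lung (log2 difference 5.90, edgeR adjusted p = 6.67e-05), and the scaffold Magi1 was at 64.67 against 14.92 CPM (2.26, edgeR adjusted p = 0.000401). Pard3, a polarity scaffold that helps place junctions, was at 12.29 against 68.78 CPM (-2.70, edgeR adjusted p = 0.000536), and Amotl2, an angiomotin-like junction protein, at 34.24 against 116.4 CPM (-1.78, edgeR adjusted p = 0.00482). In metastasis against lung, 2 were higher and 0 lower of 23, and Ildr2 reached 65.21 ± 45.12 CPM (6.87 ± 0.78, edgeR adjusted p = 0.000205). Ildr2 was the first leading gene of the tip-like subcluster. That subcluster held 312 metastasis cells (276 of them in replicate 5), 20 primary tumor cells and 4 lung cells. The part of vessel types in the Ildr2 differences was not tested. Between metastasis and primary tumor 3 were higher and 1 lower of 23 (median 0.235, all genes 0.051), among them Pard3 (2.85, edgeR adjusted p = 0.00161) and, lower, Magi1 (-1.46, edgeR adjusted p = 0.0321).

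Endothelial cells were set against the fibroblasts of the same 7 libraries. Of the members tested, 3 were higher and 1 lower in endothelium, beside 25.5% of all genes called. Cldn5 averaged 1619 against 41.09 CPM (5.42 ± 0.49, edgeR adjusted p = 5.87e-05), Tjp1 322 against 64.85 CPM (2.08 ± 0.20, edgeR adjusted p = 7.35e-05) and F11r 230.4 against 22.91 CPM (3.48 ± 0.42, edgeR adjusted p = 0.000255), each higher in 7 of 7 libraries. Cldn1 averaged 1.978 against 47.73 CPM and was lower in endothelium in 7 of 7 libraries (-5.33 ± 0.73, edgeR adjusted p = 0.000568). Cldn1 was too low to be tested without primary tumor replicate 6, with at least 10 cells, or with mural and unnamed cells kept among fibroblasts. Ocln averaged 24.13 against 1.349 CPM and was not tested, and neither were Cldn3, Cldn4, Cldn7 and Cldn18. Of the other tight junction genes 8 were higher and 4 lower of 24. Esam, an endothelial cell adhesion molecule, averaged 654.2 against 22.58 CPM (4.97, edgeR adjusted p = 7.21e-05), and Clmp, a relative of the adhesion molecule Cxadr, was lower (-4.47, edgeR adjusted p = 4.3e-05). No member passed a test of whether this contrast differed between primary tumor and lung, in which 9.54% of all genes did, and Tjp1 came nearest (-1.02 ± 0.31, edgeR adjusted p = 0.0686).

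In fibroblasts Cldn1 was higher in primary tumor than in lung. It measured 3.73, 30.77 and 20.06 CPM (1, 27 and 29 UMIs) in unchallenged lung replicates 4, 5 and 6, and 113.9, 59.64 and 92.48 CPM (86, 38 and 273 UMIs) in primary tumor TME replicates 4, 5 and 6. The groups did not overlap. Metastasis had 1 library with at least 20 fibroblasts, replicate 5, with 13.53 CPM from 5 UMIs (exact Poisson interval 4.393 to 31.58). After thinning, which left out 99 of 960 lung and 13 of 776 tumor cells, 0.30% to 2.71% of lung and 5.02% to 10.4% of tumor fibroblasts had a Cldn1 UMI, and without it 1.818% to 16.3% and 18.02% to 33.58%. Leukocytes of primary tumor TME had 1.477 to 6.008 CPM, and macrophages of unchallenged lung, at 10.88 to 24.26 CPM, overlapped with lung fibroblasts.

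**Figure D5:**
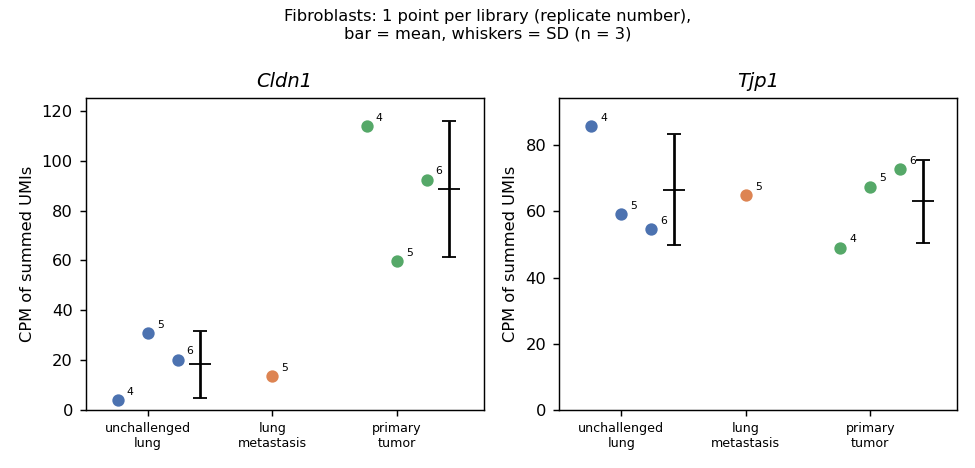
CPM of Cldn1 and Tjp1 in fibroblasts, with 1 point per library (replicate number) and the mean and SD of 3 libraries. Cldn1 was at 59.64 to 113.9 CPM in primary tumor, above all lung libraries, and Tjp1 overlapped.

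The edgeR fit called 1 member higher and 1 lower of 5 tested, beside 11.9% of all genes. Cldn1 averaged 88.66 ± 27.32 against 18.19 ± 13.62 CPM, a fitted 4.60-fold higher level in tumor (log2 2.20 ± 0.51, edgeR adjusted p = 0.0281). This call did not hold without single tumor libraries, with adjusted p = 0.0957, 0.0583 and 0.112 without replicates 4, 5 and 6. With the run named in the libraries as a block, added after the values had been seen, it was lost as well (2.23 ± 0.56, edgeR adjusted p = 0.0521). Within the run of replicates 5 and 6 the difference was 1.66 (adjusted p = 0.0914). Tjp1 measured 85.79, 59.26 and 54.64 CPM in lung and 48.99, 67.49 and 72.84 CPM in tumor (0.08 ± 0.28, edgeR adjusted p = 0.886).

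Cldn5 in fibroblasts was lower in tumor, at 0, 6.278 and 9.486 CPM, than in lung, at 74.6, 41.03 and 121 CPM (-3.57 ± 0.70, edgeR adjusted p = 0.0162). Summed endothelial markers in the same fibroblasts were 136, 221 and 426 CPM in tumor and 358, 447 and 1059 CPM in lung, and leukocyte Cldn5 was likewise lower in tumor. Their part in this difference was not tested. The call was lost without tumor replicate 5 (adjusted p = 0.0653) or 6 (adjusted p = 0.0562). F11r, at 13.24, 9.417 and 14.23 CPM in tumor and 3.73, 23.93 and 82.31 CPM in lung, did not pass (-1.59 ± 0.73, edgeR adjusted p = 0.187), but passed as lower in tumor without lung replicate 4 (-2.03, adjusted p = 0.0471). Cldn3 did not pass either (5 UMIs in tumor, -3.02 ± 1.29, edgeR adjusted p = 0.159), and Cldn4, Cldn7, Cldn18 and Ocln were too low to be tested.

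Within tumor fibroblasts Cldn1 was unevenly spread, as described here with no test. A subcluster led by Gm43434 and Ccdc152 had 165.4 CPM in replicate 4 (48 UMIs, 30 cells) and 516.5 CPM in replicate 6 (49 UMIs, 32 cells). A subcluster led by Gm14636, Gm30541 and 1700006J14Rik had 103.8, 134.2 and 94.79 CPM in replicates 4, 5 and 6. It had 1 of 12 fibroblast markers raised against the other stromal cells of its libraries. The gene 1700006J14Rik also led a melanoma cluster of 19795 cells, and a part of melanoma RNA in this subcluster was not tested. Another subcluster, led by Mcf2l, Tnxb and Eln, had none in 48 cells of replicate 5 (floor of 3 counts 12.01 CPM) and 1 UMI in 137 cells of replicate 6 (2.053 CPM). Lung fibroblasts led by C1qtnf3 and Scara5 had 38.3 and 45.31 CPM in replicates 5 and 6, and those led by Adra1a and Lrat had 17.39 CPM in replicate 6. No subcluster with at least 20 cells of a library was shared between tumor and lung.

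Of the other tight junction genes, 4 were higher and 0 lower in tumor fibroblasts of 28 tested (median 0.204, all genes -0.014). Cgnl1 averaged 178.7 against 35.54 CPM (2.39, edgeR adjusted p = 0.0121), and Jam3, a junctional adhesion molecule, 46.46 against 16.54 CPM (1.70, edgeR adjusted p = 0.0286).

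In mesothelial-like cells, named from markers of the lining of the lung surface, F11r was higher than in fibroblasts. Of these 306 cells 242 came from lung metastasis TME, and their position was not measured. Wt1 and Calca were among the leading genes of their subcluster of 259 cells. The paper lists both, with Cxadr, in the signature of its metastasis CAF cluster, and whether the cells are the same was not tested. F11r measured 89.27 and 87.89 CPM in metastasis replicates 5 and 6 and 370.5 CPM in lung replicate 6 (35 UMIs in 50 cells, exact Poisson interval 258.1 to 515.3). Against the fibroblasts of the 2 libraries with both classes F11r averaged 229.9 ± 198.9 against 47.92 ± 48.63 CPM and was called (2.28 ± 0.43, edgeR adjusted p = 0.0178, higher in 2 of 2), beside 2.60% of all genes, in a fit with 1 residual degree of freedom. Tjp1 was 54.13, 43.94 and 63.52 CPM in the 3 libraries, and Cldn1 had 2 UMIs in all. Cldn1 (-2.32, adjusted p = 0.791), Cldn3 (1.63, adjusted p = 0.636), Cldn5 (-0.66, adjusted p = 0.883) and Tjp1 (-0.12, adjusted p = 0.999) did not pass, and the other 4 members were too low to be tested. Of the other tight junction genes 3 were higher and 0 lower of 26, and their leading members were Cldn15 (141.1 ± 129.8 against 1.699 CPM, 6.92, edgeR adjusted p = 0.00187), a claudin known from intestine and mesothelium, and Cxadr (269 ± 125.9 against 4.496 CPM, 5.21, edgeR adjusted p = 0.00313), the receptor of coxsackie- and adenoviruses at junctions.

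Melanoma cells carried almost none of the membrane members. Tjp1 measured 42.91 and 35.68 CPM in lung metastasis MM replicates 4 and 5 and 39.13 and 53.99 CPM in primary tumor MM replicates 4 and 5. F11r was at 0.42 to 0.915 CPM and Cldn5 at most 0.105 CPM in these 4 libraries, and no Ocln UMI was seen. Cldn1, Cldn3, Cldn4 and Cldn18 had 1 UMI each over the 4 libraries and were too low to be tested, as were Cldn5 and Ocln. The 2127 melanoma cells of lung metastasis TME replicate 5, which did not enter the comparison, had Tjp1 at 31.64 CPM, Cldn5 at 7.056 CPM (126 UMIs), Cldn3 at 2.968 CPM (53 UMIs), F11r at 2.464 CPM and Cldn7 at 1.232 CPM, the last 4 above all MM libraries. Of 3 members tested, 0 passed in edgeR or DESeq2 and 0 had an unadjusted p under 0.05, beside 0.00698% of all genes (1 of 14318). Tjp1 gave -0.28 ± 0.33 (39.3 ± 5.106 against 46.56 ± 10.5 CPM, edgeR adjusted p = 1), F11r 0.94 ± 1.01 and Cldn7, with 7 and 23 UMIs, -1.37 ± 1.42, both at an adjusted p of 1. None of 31 other tight junction genes tested passed.

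Across 93 sums of a class in a library, the patterns of the members were set against those of 13246 other genes by Pearson's r of log2(CPM + 10), a description in which sums share libraries, depth and classes. Cldn5 was most like Clec14a (0.958), Cyyr1 (0.957) and Ptprb (0.952), Cldn18 most like Nkx2-1 (0.956) and Prss8 (0.953), and Cldn3 most like Prr15l (0.968). Cldn7 was nearest to Myh14 (0.966), Cldn4 to Sox21 (0.922), Ocln to Ptpru (0.921), Tjp1 to Tspan9 (0.913) and F11r to Cracr2b (0.81). Cldn1 had the weakest likeness, to Cilp (0.711) and Col14a1 (0.706). Among the members, Cldn3 and Cldn7 were closest (0.959), Cldn18 was near both (0.917 and 0.921), Cldn5 and Tjp1 reached 0.762, and the neighbors Cldn3 and Cldn4 reached 0.63.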

How the data were processed

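Cells were sequenced with the 10x 3′ v3.1 kit. The authors made the deposited counts, UMIs per gene and cell, with Cell Ranger 6.1.1 on GRCm38 and filtered and annotated the cells in Seurat 3.2.2. Here the raw counts were clustered in Seurat 5.3.0 (R 4.3.3; 2000 variable genes without tight junction genes, 17 principal components, 12 for subclusters, resolution 0.5). UMIs were summed per library and class (at least 20 cells), and tested with edgeR 4.0.16 (TMM, filterByExpr, quasi-likelihood, Benjamini-Hochberg over all genes), with DESeq2 1.42.0 as an alternative. The steps were tested on simulated data. The members, lists and markers were chosen with earlier results of these data known. All 9 members are named in each comparison, and of the other tight junction genes those called with a mean of at least 20 CPM in a group and the largest changes. One library name without a sample label was left out, and 1 small cluster is not reported here. The deposited annotation gives metastasis and primary tumor replicates 1-3, 5 and 6 mouse names that recur at both sites. Deviations of their same-numbered endothelial pairs had r = 0.127, 0.177 and 0.181, and replicate 4 had -0.028. Differently numbered pairs of these sites ran from -0.182 to 0.11, below the pairs with a shared mouse name. Metastasis and lung pairs, which share no mouse name, ran from -0.243 to 0.262. The part of shared mice was not tested, and the main fits of tissues did not pair libraries by mouse. Fibroblast and AT-2 metastasis comparisons, with 1 library, were not tested.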

Additional observations from a re-analysis of the deposited data

Results flagged for a closer look

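Of 18 groups of 4 libraries, 4 held a library far from the other 3, by its gap to the next value over the range (Dixon's test). For independent, normally distributed values chance marks about 1 group in 20. These groups share libraries, and the Cldn1 group held no UMI in 3 of its libraries, so that this rate does not apply as it stands. In endothelial cells of unchallenged lung, replicate 4 had Cldn5 at 4369 CPM, against 2418 CPM in the next library, and in lung metastasis TME replicate 4 had 2616 CPM against 1305 CPM. F11r in lung metastasis TME replicate 1-3 was 297.3 CPM (36 UMIs) against 188.9 CPM in the next library. Cldn1, which was not detected in the endothelial cells of the other 3 primary tumor libraries, had 14 UMIs (12.96 CPM) in replicate 6.

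The sorted melanoma library lung metastasis MM replicate 4, which enters no endothelial comparison, held 21 endothelial cells. Their Tjp1 was 635.3 CPM (exact Poisson interval 475.9 to 831) and their F11r 275.7 CPM (174.8 to 413.7), above the highest unchallenged lung libraries at 477.7 and 266 CPM, and both lung values lay inside the intervals, which cover counting error only. In lung metastasis TME, Tjp1 reached 547.8 CPM and F11r 297.3 CPM, so that F11r was not above the libraries of its own tissue and the highest Tjp1 library lay inside the interval.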

How the results depend on the processing

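The alternatives were DESeq2, its size factors, no filter on low counts, a minimum of 10 cells, a replicate block and leaving out each library. Others were replicates 5 and 6 alone, clusters made with the tight junction genes, and mural and unnamed cells kept among fibroblasts. Added after seeing the data were general capillary-like or venous-like cells alone and endothelium without the subcluster with Tyrobp. B cells without the cluster with raised endothelial markers and the run as a block were also added then. For members that passed, 314 repeats kept direction and call and 39 lost the call. The count of members called in endothelium of primary tumor against lung was 3 and became 6 without the filter. In metastasis against primary tumor it ran from 1 to 3 when single libraries were left out. In fibroblasts it was 2 and ran from 0 to 3 when single libraries were left out. There it was 0 in replicates 5 and 6 alone and 1 with mural and unnamed cells kept or with the run as a block. AT-2 against ciliated cells gave 2 in place of 4 with at least 10 cells, and club against ciliated cells gave 0 to 1 in place of 3 when a library was left out. Of 27 most similar genes, 7 were shared with log2(CPM + 1) and 16 with log2(CPM + 50). Directions turned for values that had not passed: Tjp1 in endothelium of metastasis against lung was 0.067 in general capillary-like cells alone and ran from -0.299 to 0.054 (without metastasis replicates 4 and 5) when single libraries were left out. F11r in endothelium of primary tumor against lung was 0.23 in venous-like cells alone. Tjp1 in fibroblasts was -0.018 with at least 10 cells, -0.095 with mural and unnamed cells kept, and ran from -0.072 (without lung replicate 6; -0.050 without primary tumor replicate 6) to 0.216 (without primary tumor replicate 4). Tjp1 in club against ciliated cells ran from -0.230 (without lung replicate 5) to 0.471 (without lung replicate 6). The cause was not tested. The replicate block changed no call of a member, and left 0, 3, 3, 2 and 0 members called in the 3 endothelial, the fibroblast and the melanoma comparison. Depth limits Cldn4 in Krt5 cells and Cldn1 in lung fibroblasts, each with few UMIs per library, and Ocln in primary tumor replicate 1-3. In larger classes Cldn4 was low at ample depth. It had 3 of 3478345 UMIs in AT-2 cells of lung replicate 6 and none of 60110014 in melanoma cells of lung metastasis MM replicate 5. Counts of all genes called moved as well. Metastasis against lung endothelium (343) gave 758 without the filter, 2112 in replicates 5 and 6 alone and 811, 116 and 220 without metastasis replicates 4, 5 and 6. Fibroblasts (1336) gave 2417 without the filter, 393 in replicates 5 and 6 alone and 610, 505 and 311 without primary tumor replicates 4, 5 and 6. Melanoma (1) gave 7 with DESeq2 size factors, 27 with DESeq2, 84 without the filter, 114 with the replicate block and 0 to 53 without single libraries. Mesothelial-like cells (230) gave 132 with DESeq2, 406 without the filter and 356 with the other clusters. Without lung replicate 5, AT-2 against ciliated cells fell from 3434 to 1400 (2127 without metastasis replicate 5), AT-2 against endothelial cells from 3837 to 2285, and club against ciliated cells from 1598 to 101.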
